A study of Homo sapiens with 12 samples.

Results

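Actins, tubulins and small actin-binding proteins build the filaments that shape a cell, and the 10 genes described here were given by their Ensembl gene IDs as one set, out of 18569 gene IDs. They hold 2056 of the 842183 positions measured. The set comprised ACTB (ENSG00000075624) and ACTG1 (ENSG00000184009), which encode β- and γ-actin, the α-tubulin genes TUBA1A (ENSG00000167552), TUBA1B (ENSG00000123416) and TUBA1C (ENSG00000167553), and the β-tubulin genes TUBB (ENSG00000196230) and TUBB4B (ENSG00000188229). The actin-binding members were CFL1 (ENSG00000172757), PFN1 (ENSG00000108518) and TMSB10 (ENSG00000034510). Gene symbols came from the list that defined the set, since the deposited values carry IDs and no symbol.

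Internal m7G (N7-methylguanosine) of mRNA was mapped by AlkAniline-Seq in LNCaP-AI, a castration-resistant prostate cancer line derived from LNCaP and kept under androgen deprivation. Cells were stably transduced with lentiviral shMETTL1, which targets the m7G methyltransferase METTL1, or with shscramble as the control, and both groups were androgen-deprived. Each group had 3 replicates, and each replicate had an AlkAniline-Seq library and an input library, 12 libraries in all. The question of the comparison was which mRNAs lose internal m7G when METTL1 is knocked down. One line was used, the labels do not say whether replicates were separate cultures, and p-values therefore measure the spread between these samples, which may be technical. METTL1 itself and markers of the line were not looked up here, because the reference table used pairs no Ensembl ID with a symbol.

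Actin monomers (G-actin) join into filaments that drive cell movement and hold cell shape, while dimers of α- and β-tubulin join into microtubules that carry cargo and form the mitotic spindle. Filament turnover is set by small partners: cofilin, from CFL1, severs actin filaments, profilin, from PFN1, helps monomers to join them, and thymosin β10, from TMSB10, holds monomers back. ACTB is widely used as a reference gene.

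AlkAniline-Seq breaks RNA by chemistry at m7G and reads the ends this leaves, so a position's count is the number of reads at that nucleotide and its coverage is the number of reads over it. AlkAniline-Seq counts ranged from 1421551 to 2764417 per library and input counts from 2783709 to 3258499. One library stood apart at the members as elsewhere. Of member positions read 50 times or more, all 92 of shscramble replicate 2 and all 41 of shscramble replicate 3 also had a read in shscramble replicate 1, whereas the other ordered pairs of libraries reached 44.2% to 93.2%. Several counts below are therefore given without it as well. Without it, 0 members were called in the comparisons of AlkAniline-Seq, of the input and of AlkAniline-Seq over the input, as with it.

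The 10 genes together took nearly the same share of AlkAniline-Seq reads in the 6 libraries. The share was 0.569%, 0.549% and 0.574% in shscramble replicates 1 to 3 and 0.563%, 0.547% and 0.544% in shMETTL1 replicates 1 to 3. In the input it was 0.764%, 0.640% and 0.640% in shscramble and 0.713%, 0.598% and 0.670% in shMETTL1, so every input library was above every AlkAniline-Seq library. The groups overlapped in both assays (exact two-sided permutation test, p = 0.2 for AlkAniline-Seq and 0.7 for the input, where 3 against 3 allow no p under 0.1).

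None of the 10 genes was called changed in AlkAniline-Seq reads after METTL1 knockdown. Reads were summed per gene and tested by edgeR's quasi-likelihood test over 11097 gene IDs, of which 1 was called at an adjusted p under 0.05 (0.00901%). At an unadjusted p under 0.05 there were 0 members, against 6.97% of all IDs, and DESeq2 called 0 members among 178 IDs. The members' log2 fold changes ran from -0.68 to 0.53 with a median of 0.14, and 7 of 10 lay above 0. The median over all IDs was 0.07, with 52.9% above 0.

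Of the actins, ACTB stood at 835, 552 and 726 CPM (counts scaled to library size, here after TMM scaling) in shscramble and at 723, 724 and 806 in shMETTL1. The groups overlapped, and the log2 fold change was 0.09 (standard error, SE, 0.28, adjusted p = 0.99, edgeR). It was -0.0091 when libraries were scaled by size alone. ACTG1 stood at 1675, 1295 and 1723 CPM in shscramble and 1329, 1689 and 849 in shMETTL1 (log2 fold change -0.28, SE 0.27), with shMETTL1 replicate 3 the lowest of the 6. The value was -0.03 without shMETTL1 replicate 3, -0.50 without shMETTL1 replicate 2 and -0.17 without shscramble replicate 3.

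The α-tubulins differed by less than their errors. TUBA1B stood at 641, 655 and 602 CPM in shscramble and 577, 766 and 762 in shMETTL1 (log2 fold change 0.15, SE 0.27). TUBA1A was at 0.13 (SE 0.40) and TUBA1C at -0.08 (SE 0.32). Of the β-tubulins, TUBB stood at 627, 866 and 699 CPM in shscramble and 1084, 647 and 964 in shMETTL1, and TUBB4B at 213, 321 and 373 against 345, 485 and 388. Both overlapped between groups, with log2 fold changes of 0.30 (SE 0.28) and 0.43 (SE 0.35).

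After TMM scaling, CFL1 was the member whose AlkAniline-Seq groups did not overlap. It stood at 367, 337 and 368 CPM in shscramble and 514, 639 and 390 in shMETTL1, so that the lowest knockdown library lay just above the highest control. The controls averaged 357 ± 17.5 and the knockdown libraries 515 ± 125 (SD, n = 3 each). Its log2 fold change of 0.53 (SE 0.31) did not pass the edgeR test (adjusted p = 0.80), and 7.1% of all IDs were above in every shMETTL1 library in the same way, which is near the 1 in 10 of the members. Without shscramble replicate 1 it was also 1 in 10, against 10.8% of IDs. By library size alone the CFL1 groups overlapped, since shMETTL1 replicate 3 had 369 CPM and shscramble replicate 1 had 386, and 0 of 10 members against 6.2% of IDs were above in every shMETTL1 library.

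TMSB10 and PFN1 spread more. TMSB10 stood at 210, 297 and 188 CPM in shscramble and 125, 217 and 90.5 in shMETTL1 (log2 fold change -0.68, SE 0.46, adjusted p = 0.85, edgeR). PFN1 stood at 208, 457 and 225 CPM in shscramble and 245, 302 and 609 in shMETTL1. Its log2 fold change of 0.38 (SE 0.42) became -0.10 without shMETTL1 replicate 3, the library with its highest level.

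**Figure D1:**
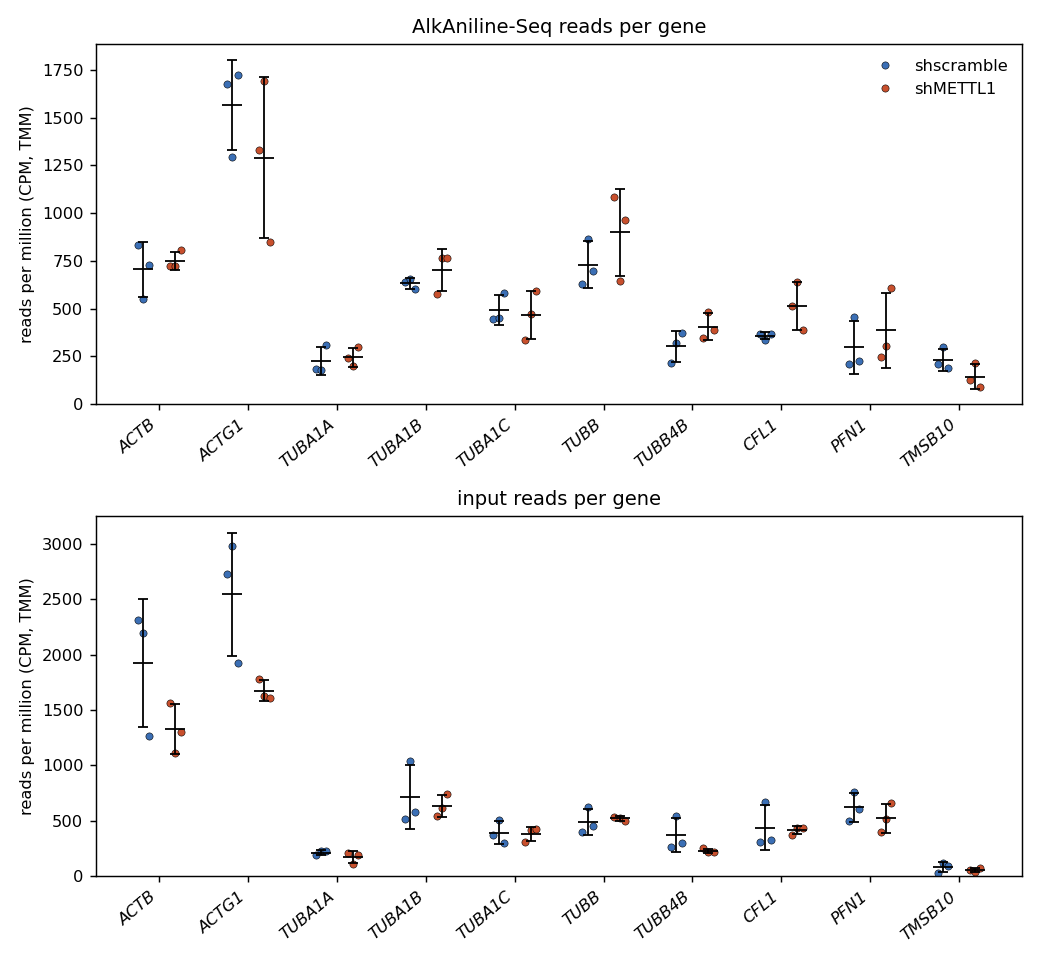
AlkAniline-Seq (top) and input (bottom) reads per gene in CPM after TMM scaling (vertical axes) for the 10 genes (horizontal axes). Points are the 3 shscramble and 3 shMETTL1 libraries, bars the mean ± SD, and on this scale the groups are apart for CFL1 in AlkAniline-Seq and for ACTG1 and TUBB4B in the input, which overlap by library size alone.

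In the input, where reads at the listed positions were summed per gene, 9 of the 10 genes lay below 0 after knockdown, and none was called. Such a sum can rest on few positions and is not a direct measure of mRNA level. In ACTB the most-read position of each library held 53.1% to 72.8% of the input reads. Of 11740 IDs tested, 0 were called by edgeR (0.0%), and 6.26% had an unadjusted p under 0.05, as did 1 of the 10 members. DESeq2 called 35 IDs and no member. The members' median log2 fold change was -0.28 against -0.04 over all IDs. Their side of 0 depended on the scaling. With library size alone the median of all IDs moved to 0.22 and 6 members lay above 0, but the members' median, at 0.05, was still below that of all IDs.

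ACTG1 was the member with an unadjusted p under 0.05 in the input. It stood at 2723, 2983 and 1924 CPM in shscramble and 1781, 1630 and 1613 in shMETTL1, so every knockdown library lay below every control. The log2 fold change was -0.60 (SE 0.26, adjusted p = 0.77, edgeR), and with library size alone it was -0.27. TUBB4B, a β-tubulin made in most tissues, was also below in every shMETTL1 library, with 262, 544 and 302 CPM in shscramble against 253, 216 and 218 (log2 fold change -0.69, SE 0.39, adjusted p = 0.81, edgeR). Its value was -0.30 with library size alone and -0.30 without shscramble replicate 2, the library with its highest level. Over all IDs, 5.84% were below in this way, against 2 of 10 members, and without shscramble replicate 1 it was 11.6% against 4 of 10. By library size alone the groups of both genes overlapped. TUBB4B then had 299 CPM in shMETTL1 replicate 1 against 263 in shscramble replicate 1, and ACTG1 had 2105 in shMETTL1 replicate 1 against 1973 in shscramble replicate 2. TUBB was then the member above in every shMETTL1 library, against 10.5% of IDs.

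The groups of the other actin overlapped through shscramble replicate 3. ACTB stood at 2313, 2194 and 1264 CPM in the shscramble inputs and 1562, 1114 and 1302 in the shMETTL1 inputs, a log2 fold change of -0.54 (SE 0.29, adjusted p = 0.81, edgeR). TUBB, at 397, 625 and 452 against 539, 529 and 500 CPM, was the member above 0 (0.09, SE 0.33). The remaining members lay between -0.04 for TUBA1C and -0.54 for TMSB10, whose input was as low as 32.0 CPM in shscramble replicate 1.

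When AlkAniline-Seq was read over the input, in a model of the 12 libraries with the interaction of assay and group, all 10 members lay above 0 and none was called. Of 12877 IDs 1 was called (0.00777%), 8.35% had an unadjusted p under 0.05, and the median over all IDs was 0.24, against 0.52 over the members. With library size alone the median of all IDs moved to -0.28 and 5 of 10 members lay above 0, with a median of -0.04. Under both scalings 8 of 10 members lay above the median of all IDs.

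TUBB4B had the largest of the 10 differences over the input. The log2 ratio of AlkAniline-Seq to input was -0.48, -1.07 and 0.12 in shscramble and 0.40, 1.06 and 0.72 in shMETTL1, without overlap. The interaction was 1.27 (SE 0.55, adjusted p = 0.55, edgeR), and 0.62 with library size alone. PFN1 did not overlap either, at -1.45, -1.04 and -1.61 in shscramble and -0.75, -0.88 and -0.23 in shMETTL1 (0.76, SE 0.57, adjusted p = 0.77, edgeR). These 2 of 10 compare with 5.94% of all IDs whose every shMETTL1 ratio was above, and without shscramble replicate 1 it was 3 of 10 against 10.7%. ACTB reached 0.77 (SE 0.40), CFL1 0.75 (SE 0.52) and TUBA1A 0.58 (SE 0.60), while TMSB10 was at 0.01 (SE 0.81).

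These differences over the input were smaller with library size alone. PFN1 was then at 0.19, ACTB at 0.19, CFL1 at 0.09 and TUBA1A at 0.04. The PFN1 ratios then overlapped, with -0.11 in shscramble replicate 2 against -0.92, -1.02 and -0.32 in shMETTL1, whereas those of TUBB4B still did not. TUBB4B was the 1 member of 10 above in every shMETTL1 library, against 2.73% of IDs, and TUBA1C the 1 below in every such library, against 10.9%. Single libraries moved the values as well: without shscramble replicate 2, CFL1 was at 0.20 and TUBB4B at 0.88.

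**Figure D2:**
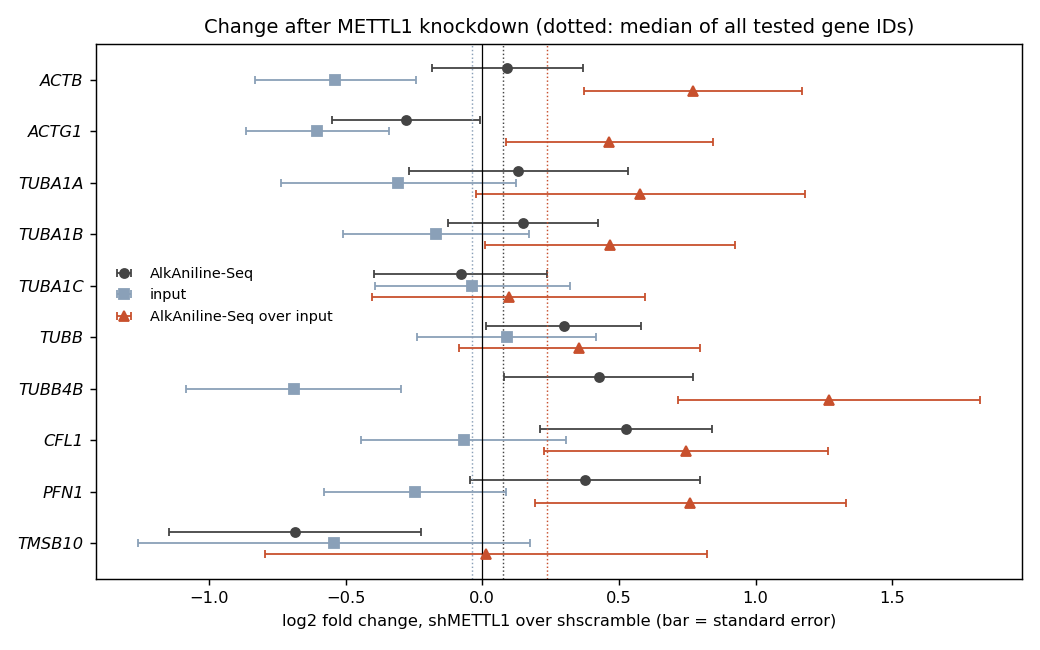
Log2 fold change of shMETTL1 over shscramble (horizontal axis) for each gene (vertical axis) in AlkAniline-Seq, in the input and in AlkAniline-Seq over the input, with standard errors from edgeR as bars. Dotted lines mark the median of all tested gene IDs in each comparison, at 0.07, -0.04 and 0.24, and 9 of 10 input values lie below 0 and all 10 values over the input above it (4 and 5 of 10 with library size alone).

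The members differed in how their AlkAniline-Seq level stood to their input within a group. ACTB was lower in AlkAniline-Seq than in the input in all 6 libraries, with log2 ratios of -1.65, -2.30 and -0.98 in shscramble and -1.16, -0.73 and -0.80 in shMETTL1. In shscramble it fell by 1.68 on the log2 scale (SE 0.29, adjusted p = 0.0041, edgeR) and was the member called, where 82 of 12877 IDs were called (0.637%), 70 of them lower (0.544%). The call ended without shscramble replicate 1 (-1.58, adjusted p = 0.094, edgeR), without replicate 2 (-1.39, adjusted p = 0.058) and without the most-read position of each gene (-0.86, adjusted p = 0.44). The position left out was the one with the most reads over AlkAniline-Seq and input together. In shMETTL1 the log2 fold change was -0.91 (SE 0.28, adjusted p = 0.30, edgeR), and 0 members were called where 0.21% of IDs were.

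ACTG1 and PFN1 were also below 0 in all 6 libraries. ACTG1 had a log2 fold change of -0.93 (SE 0.27, adjusted p = 0.13, edgeR) in shscramble and -0.47 (SE 0.27) in shMETTL1, and PFN1 had -1.30 (SE 0.41, adjusted p = 0.16, edgeR) and -0.54 (SE 0.40). TUBB and TMSB10 were above 0 in all 6. TMSB10 had 1.25 (SE 0.59) in shscramble and 1.26 (SE 0.59) in shMETTL1, and TUBB had 0.34 (SE 0.31) and 0.69 (SE 0.31), and none of these passed the adjusted threshold. Without each gene's most-read position TMSB10 was at 0.35 in shscramble and 0.89 in shMETTL1, and TUBB at -0.17 and 0.53. TMSB10 was at 0.63 in shMETTL1 without replicate 2. Over all IDs, 4.54% were below 0 in all 6 libraries, against 3 of 10 members, and 3.91% above, against 2 of 10. The remaining members, TUBA1A, TUBA1B, TUBA1C, TUBB4B and CFL1, lay on both sides of 0.

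**Figure D3:**
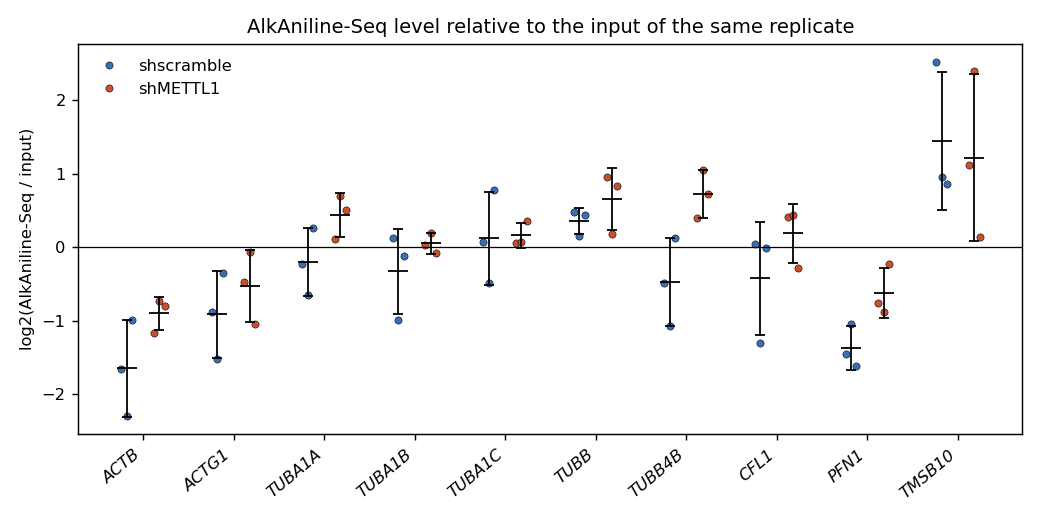
Log2 ratio of AlkAniline-Seq to input CPM of the same replicate (vertical axis) for the 10 genes (horizontal axis), with the mean ± SD of the 3 shscramble and 3 shMETTL1 libraries. ACTB, ACTG1 and PFN1 are below 0 and TUBB and TMSB10 above 0 in all 6 libraries.

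The most-read positions of the actins and of TUBB stood differently to the input. For each gene the position with the most AlkAniline-Seq reads over the 6 libraries was taken, and in 5 of the 10 genes (ACTB, ACTG1, TUBA1B, TUBA1C and PFN1) it was also the most-read position of the input. In ACTB it had 420, 276 and 138 reads in shscramble and 548, 240 and 264 in shMETTL1. That was 27.6%, 18.7% and 13.5% of the gene's AlkAniline-Seq reads in shscramble and 29.6%, 13.5% and 14.0% in shMETTL1. In the input the same position held 57.0%, 72.8% and 53.8% of the gene's reads in shscramble and 53.1%, 57.7% and 54.3% in shMETTL1. Its reads, as a share of coverage, were below the input's in all 6 libraries, a fold over input of 0.44 to 0.81, and edgeR did not call it between groups (log2 fold change 0.18, SE 0.67).

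The γ-actin gene had a position of the same kind. The most-read position of ACTG1 had 357, 251 and 87 reads in shscramble and 430, 495 and 284 in shMETTL1, between 3.58% and 14.3% of the gene's AlkAniline-Seq reads and between 30.6% and 43.5% of its input reads. Its fold over input was 0.45 to 0.89. In both actins the position with the most AlkAniline-Seq reads was also the most-read over AlkAniline-Seq and input together. With each gene's most-read position over both assays left out, the log2 fold change of AlkAniline-Seq against the input moved in shMETTL1. It went from -0.91 to -0.01 for ACTB and from -0.47 to 0.14 for ACTG1. In shscramble both stayed below 0, at -0.86 for ACTB and -0.68 for ACTG1, where they had been at -1.68 and -0.93.

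The next most-read positions of ACTB varied between libraries. The second had 144, 7 and 7 reads in shscramble and 12, 167 and 259 in shMETTL1 and was also second in the input, with 253 to 700 reads. The third had 25, 81 and 126 reads in shscramble and 63, 1 and 67 in shMETTL1, with 0 to 54 reads in the input and a fold over input above 1 in all 6 libraries. In shMETTL1 replicate 2 that fold rested on 1 read with a coverage of 1, and where the input had no read the deposited fold is the fraction plus 1. TUBA1B was alike in its spread. Its 3 most-read positions had 172, 341 and 15, then 9, 28 and 20, then 80, 161 and 10 reads in shscramble, against 191, 319 and 67, then 77, 145 and 124, then 23, 8 and 110 in shMETTL1.

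TUBB differed from the actins at its most-read position. It had 233, 219 and 31 reads in shscramble and 505, 274 and 234 in shMETTL1, and the position was only the sixth in the input, with 15 to 72 reads. The count was 24.4%, 14.1% and 8.16% of the coverage in shscramble and 17.0%, 15.6% and 24.8% in shMETTL1, against 1.04% to 5.42% in the input libraries. The fold over input was 5.66, 13.5 and 2.72 in shscramble and 3.76, 2.88 and 5.66 in shMETTL1. Its reads were not called between groups by edgeR (log2 fold change 1.01, SE 0.80). The position was picked for its AlkAniline-Seq reads, which favours a fold above 1.

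Over the 55 member positions read in all 12 libraries, this TUBB position was the one whose fold over input was above 1 in all 6 libraries, or 1.82%, against 93 of 5336 positions (1.74%) over all genes. The share was thus near the background. With shscramble replicate 1 left out it was 1 of 56 (1.79%), against 2.37%. Another 8 of the 55 (14.5%) were below 1 in all 6, against 9.35% over all genes, and without shscramble replicate 1 it was 8 of 56 (14.3%), against 11.1%. They were 2 positions each in ACTB, ACTG1 and PFN1 and 1 each in TUBA1B and TUBA1C, and they included the most-read position of each of those 5 genes.

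**Figure D4:**
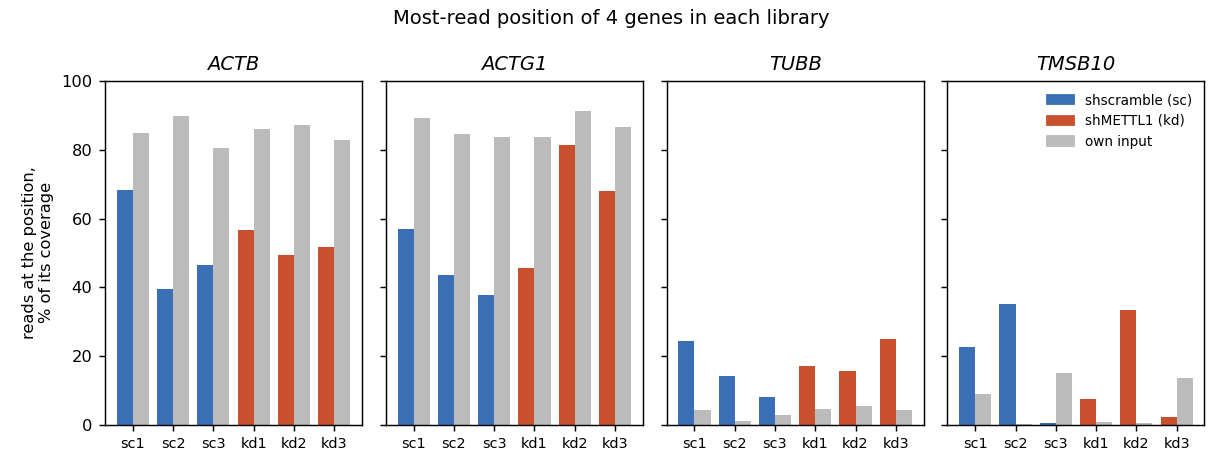
Reads at the most-read position as a percent of its coverage (vertical axis) in each AlkAniline-Seq library and its own input (grey) for ACTB, ACTG1, TUBB and TMSB10, with shscramble (sc) and shMETTL1 (kd) replicates on the horizontal axes. The input is above AlkAniline-Seq in all 6 libraries for both actins and below it in all 6 for TUBB.

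The most-read position of CFL1 had 43, 61 and 72 reads in shscramble and 220, 131 and 354 in shMETTL1 (log2 fold change 1.80, SE 0.91, adjusted p = 0.71, edgeR). In CPM by library size alone that was 24.8, 23.2 and 50.6 against 87.6, 47.4 and 143, so the groups overlapped at shMETTL1 replicate 2. As a percent of coverage it overlapped too, at 6.46%, 4.25% and 10.9% in shscramble and 18.7%, 6.56% and 19.6% in shMETTL1. The most-read positions of the remaining genes depended on few libraries. That of TMSB10 had 120, 389 and 2 reads in shscramble and 89, 220 and 15 in shMETTL1, that of TUBA1C 92, 151 and 63 against 2, 154 and 233, and that of PFN1 168, 373 and 67 against 82, 109 and 594. In TUBB4B 155 reads came from shMETTL1 replicate 1 and 84 from shscramble replicate 2, with 0 to 5 in the other libraries, and in TUBA1A the 6 counts were 19, 1 and 28 against 80, 34 and 23.

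With all 6 libraries, no member position was called between groups by edgeR. Of 13973 positions that could be tested, edgeR called 0 (0.0%), 8.19% had an unadjusted p under 0.05 and 6.32% had one with fewer reads in shMETTL1. The members had 156 tested positions, of which 8 had an unadjusted p under 0.05, all 8 with fewer reads in shMETTL1, which is to be read beside the 6.32%. Without shscramble replicate 1, 6 of 233 member positions had an unadjusted p under 0.05, 3 with more and 3 with fewer reads. Over all positions it was then 1080 of 20936, 479 with more and 601 with fewer reads. DESeq2 called 2 member positions, both lower, beside 3.84% of the 13973 positions called lower. Without shscramble replicate 3 edgeR called 20 of 264 member positions, 2 higher and 18 lower, where 19.0% of all 29677 tested positions were called. The other 1154 member positions with an AlkAniline-Seq read did not pass the filter, which asks for enough reads in enough libraries. The most-read position of TUBB4B, deep in only 2 libraries, was among them.

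The 8 positions, singled out after their values were seen, lay in 6 genes, among them the α-tubulins TUBA1A, TUBA1B and TUBA1C. The TUBA1C position had 45, 110 and 144 reads in shscramble and 1, 7 and 2 in shMETTL1 (log2 fold change -5.04, SE 1.72, adjusted p = 0.35, edgeR). A TUBB position had 8, 101 and 8 reads in shscramble and 0 in each shMETTL1 library, with 281 to 1334 reads of coverage in every library and 0 or 1 reads in the inputs (adjusted p = 0.32, edgeR). In both, every control library was above every knockdown library. After TMM scaling this held for 11.2% of all tested positions and for 21 of the 156 of the members, and the 8 were singled out for small p-values, which favours it.

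The others were smaller. One ACTB position had 14, 30 and 62 reads in shscramble and 1, 0 and 3 in shMETTL1, and one ACTG1 position had 54, 14 and 6 against 1, 1 and 0. A TUBA1B position had 14, 22 and 37 reads against 2, 0 and 0, and a second TUBB position had 14, 16 and 53 against 2, 0 and 0. Of the TUBA1A positions, one had 13, 19 and 42 reads against 1, 0 and 0 and one had 11, 11 and 16 against 1, 1 and 0. The first of these was close to the TUBA1B position in coverage too, with 28, 23 and 63 reads in shscramble where TUBA1B had 30, 30 and 63. Whether they share reads was not tested, so they are not to be counted as independent. The ACTB and TUBA1C positions were well read in the inputs of both groups. The ACTB position had 193, 5 and 121 input reads in shscramble and 119, 241 and 117 in shMETTL1, and the TUBA1C position had 171, 6 and 104 against 8, 310 and 73. The other 6 had 0 to 35 input reads in each library.

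The study's thresholds were a fold change above 1.5 and an unadjusted p under 0.05, which the paper used to select genes by mRNA expression and by m7G. The sources used here do not name the m7G values that were tested, and single positions are read here instead of genes. Set here on the deposited fold over input with the methods' t-test, 21 of the 1310 member positions with an AlkAniline-Seq read passed, 2 higher and 19 lower after knockdown. Over all 404685 positions 0.203% passed higher and 1.05% lower. The 19 lower positions were 4 each in ACTG1 and TUBA1A, 3 in TUBB, 2 each in TUBA1B and TUBB4B, and 1 each in ACTB, TUBA1C, CFL1 and TMSB10. A TUBA1A position had 14, 4 and 15 reads in shscramble and 0, 0 and 2 in shMETTL1. The TUBA1C position was close to it, with 12, 3 and 16 against 0, 2 and 1. Whether they share reads was not tested, so the 19 are not to be counted as independent. Where the input has no read the deposited fold is the fraction plus 1, so that single reads can pass. One ACTG1 position and one TUBB position passed with 1 read in each shscramble library and 0 in each shMETTL1 library, and 4 of the 21 had under 10 reads in every library. Of those 19, 11 had no read in any shMETTL1 library, and 2 of the 21 had an edgeR unadjusted p under 0.05. The 2 higher positions were in ACTB, with 1, 1 and 0 reads against 7, 8 and 101, and in PFN1, with 5, 2 and 0 against 59, 12 and 8. The counts moved with single libraries. Without shscramble replicate 1 they were 1 higher and 28 lower, and without shscramble replicate 2 they were 2 and 85. They were 0 and 101 without shscramble replicate 3, and 27 and 20 without shMETTL1 replicate 2. Over all 404685 positions the counts in that order were 802 and 5644, 728 and 22110, 681 and 31454, and 4575 and 4065. With all libraries they were 822 and 4229, so the whole set of positions moved as well.

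Member positions recurred between libraries more than positions at large did, without a match for read depth. The members took 0.54% to 0.57% of AlkAniline-Seq reads with 2056 of 842183 positions. Recurrence at equal depth was not tested, so the difference is not to be read as particular to these genes. Of the 1310, 76 (5.80%) were read in all 6 AlkAniline-Seq libraries and 497 (37.9%) in exactly 1, where the shares over all 404685 positions were 1.9% and 62.9%. Without shscramble replicate 1, 77 of 1204 (6.40%) were read in all 5 libraries, against 2.2% over all positions, and 601 (49.9%) in exactly 1, against 75.4%. ACTG1 had 23 positions read in all 6, ACTB 12, TUBA1B and TUBB 9 each, and TUBB4B 2. Positions read only in shscramble numbered 381 (29.1%) and those read only in shMETTL1 339 (25.9%), where the shares over all positions were 39.9% and 39.2%. Without shscramble replicate 1 they were 275 (22.8%) and 433 (36.0%), against 31.7% and 50.1%.

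The count as a percent of coverage, summed over the positions of a gene, sets the reads at positions against the coverage of the same gene. TMSB10 was the member whose groups did not overlap. It stood at 4.07%, 5.06% and 4.37% in shscramble and 2.19%, 3.35% and 1.66% in shMETTL1, or 4.50% ± 0.51 against 2.40% ± 0.87 (SD, n = 3, exact two-sided permutation test, p = 0.1, the smallest possible). The coverage behind these values, summed over positions, was 6058 to 15945. It is not a number of reads, since a read counts at every listed position it covers. Its input stood at 1.94%, 1.42% and 4.95% in shscramble and 4.20%, 2.30% and 3.88% in shMETTL1, which overlapped. Among 2412 IDs with enough coverage, 8.17% were below in every shMETTL1 library, against 1 of 10 members (12% and 1 of 10 without shscramble replicate 1), and the median difference was -0.30 percentage points.

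The other 9 genes overlapped in AlkAniline-Seq, and 8 of the 10 were lower on average in shMETTL1. Of the 2412 IDs with enough coverage, 43.1% were higher on average. ACTB was at 5.04% ± 1.02 in shscramble and 4.91% ± 0.35 in shMETTL1 (SD, n = 3, exact permutation test, p = 0.9) and ACTG1 at 3.98% ± 0.32 and 3.49% ± 0.37 (SD, n = 3, exact permutation test, p = 0.2). TUBA1A, at 4.20% ± 0.19 and 5.16% ± 1.06 (SD, n = 3), and TUBB4B were the 2 that were higher on average. In the input 9 of 10 genes were higher on average in shMETTL1, and ACTG1 and TUBA1C were higher in every shMETTL1 library (exact permutation test, p = 0.1 for each). ACTG1 stood at 6.02%, 6.02% and 4.60% against 6.62%, 6.63% and 6.29% there. Over 2954 IDs the median input difference was 0.56 percentage points, 63.3% were higher on average and 9.51% were above in every shMETTL1 library. With shscramble replicate 1 left out it was 18.1%, against 3 of 10 members.

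**Figure D5:**
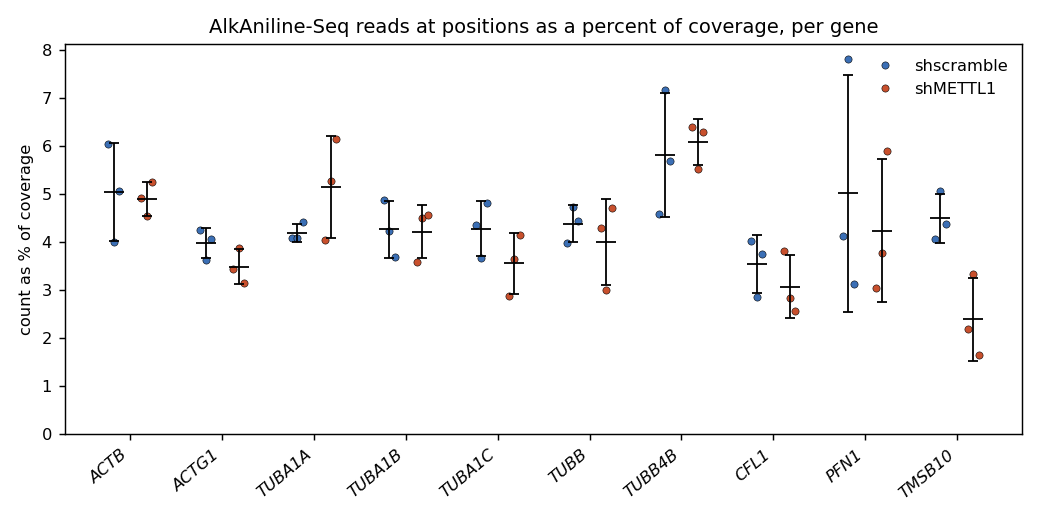
AlkAniline-Seq count as a percent of coverage, summed over the positions of each gene (vertical axis), for the 10 genes (horizontal axis) in the 3 shscramble and 3 shMETTL1 libraries with the mean ± SD. TMSB10 is lower in every shMETTL1 library, and the other 9 genes overlap.

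How alike the genes were across the 12 libraries was described by Pearson's r of log2 CPM, where libraries share assay and depth. For none of the 10 was another member the most alike of 12876 IDs. ACTB and ACTG1 were each other's closest member at r = 0.82, which ranked 96 for ACTB and 79 for ACTG1, and the most alike were ENSG00000262526 for ACTB (r = 0.97) and ENSG00000167674 for ACTG1 (r = 0.95). TUBA1B and CFL1 were each other's closest member at r = 0.79, and TUBB and TMSB10 at r = 0.49. Near-identical copies among actin and tubulin genes could share reads, and how reads that fit several places were counted is not given in the sources used here. Of 45 pairs of members, 5 had a position with the same counts and coverage in every library, 7 positions in all and 0 between tubulins. Of the 7, 1 was between ACTB and ACTG1 and 3 between ACTB and TUBA1C. The pairs ACTB and CFL1, ACTG1 and TUBA1C, and TUBA1C and CFL1 had 1 each. Most exact matches were thus between genes of different families, and why they matched was not tested. Only exact matches were counted, so reads split between copies would be missed. One TUBA1A position had 13, 19 and 42 reads in shscramble and 1, 0 and 0 in shMETTL1. A TUBA1B position was close to it, with 14, 22 and 37 and then 2, 0 and 0. Such near matches recurred among the α-tubulins. Another TUBA1A position had 5, 7 and 4 and then 59, 23 and 55, beside 4, 8 and 6 and then 84, 23 and 48 in TUBA1B. Close counts also occurred in each α-tubulin gene: 4, 31, 7, 0, 60 and 5 in TUBA1A, 6, 25, 16, 0, 62 and 4 in TUBA1B, and 4, 30, 13, 0, 65 and 6 in TUBA1C. Whether tubulins share reads was not tested, so sums and positions of the α-tubulins are not to be counted as independent.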

How the data were processed

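AlkAniline-Seq and input libraries of shMETTL1 and shscramble LNCaP-AI cells were used, 3 of each. Per the file headers, the authors deposited for every position a count of reads, a count of reads covering it, the fraction (count divided by coverage) and a ratio, that is, the fraction divided by the same fraction of the input. The fraction matched at all 842183 positions at a relative tolerance of 1e-06, and the fold at 842096 or more in each file. Tools named in the submitters' processing notes were Bowtie2 2.2.4, cutadapt 1.9.1 and bedtools 2.24, with hg19 as the genome build. For read filters and annotation, nothing is stated in the sources used here. Positions were matched between files by row, as the gene ID column was identical. No coordinate was used, so no sequence is shown.

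The 10 members and the lists were chosen with earlier results of these data known. Every member was to be named, with its most-read position and, for ACTB and TUBA1B, the next most-read ones, and at most 2 similar gene IDs. Of 18569 IDs, 0 matched the reference table of 59792 genes, so METTL1, cell type markers and a list of other cytoskeleton genes were not looked up.

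Counts were summed per gene ID and tested over all IDs with edgeR 4.0.16 in R 4.3.3 (TMM, quasi-likelihood, minimum count 10, minimum total 15, Benjamini-Hochberg at 0.05), and likewise per position. Standard errors were derived as the log2 fold change over the root of F. DESeq2 1.42.0, limma 3.58.1 (pseudocount 1 CPM), library size alone, other filters, the replicate number as a block, the highest position per gene and leaving out each replicate were alternatives. Leaving out each gene's most-read position, and group overlap by library size alone (0.5 CPM added for ratios) or without shscramble replicate 1, were added after seeing the data. The position left out was the one with the most reads over AlkAniline-Seq and input together, which need not be the one with the most AlkAniline-Seq reads. The t-test was set on the fold over input here, since the sources used here do not name the m7G values that were tested. Percent of coverage was tested by exact permutation, with a coverage of 1000, summed over the positions of a gene, as the background's minimum. Python 3.11.15, scipy 1.17.1 and matplotlib 3.10.9 were used. The tests were tried on simulated data. Depth was 1421551 to 3258499 reads per library, and the coefficient of variation between replicates was 0.90 per gene and 1.42 per position in AlkAniline-Seq.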

Additional observations from a re-analysis of the deposited data

How the results depend on the processing

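The count of members called was 0 for AlkAniline-Seq, input and AlkAniline-Seq over input under every alternative that was run, and 1 in shscramble against input except without shscramble replicate 1, without replicate 2 (0 to 1 over the replicates left out) and without each gene's most-read position (0). At single positions 0 members were called, 2 with DESeq2, 21 by the methods' t-test at the study's thresholds, and 0 to 20 over the replicates left out, with 20 without shscramble replicate 3, where 19.0% of 29677 positions were called. For percent of coverage the count of genes that did not overlap was 1 to 3. With the replicate block no call on a member changed (0, 0, 0, 1 and 0 genes and 0 positions called). The labels pair each AlkAniline-Seq library with its input, which the main fit over the 12 libraries did not use and the block fit did. Correlations of same-numbered deviations lay between -0.03 and 0.05, and 6 of 12 checks gave the own number as the best match. Deviations from means of 3 libraries cannot show whether a pairing is present or absent. Depth was least for TMSB10, with 212 to 792 AlkAniline-Seq reads a library, and most for ACTG1, with 1988 to 4160. None of the following values was called. With library size alone the log2 values on the other side of 0 were ACTB -0.0091 in AlkAniline-Seq, then TUBA1A 0.010, TUBA1B 0.21, TUBA1C 0.31, CFL1 0.33 and PFN1 0.081 in the input, then ACTG1 -0.12, TUBA1B -0.17, TUBA1C -0.49, TUBB -0.22 and TMSB10 -0.65 over the input, then TUBA1A 0.24 and TUBA1B 0.093 against the input in shscramble, then TUBA1B -0.078 against the input in shMETTL1. With the highest position per gene the log2 values on the other side of 0 were ACTB -0.23, TUBA1B -0.21 and TUBB4B -0.081 in AlkAniline-Seq, then ACTG1 0.11, TUBA1A 0.066, TUBA1B 0.081, TUBA1C 0.15 and PFN1 0.11 in the input. With no filter the log2 values on the other side of 0 were TUBA1C 0.040 in AlkAniline-Seq, then TUBA1C -0.018 and TMSB10 -0.13 over the input. With a minimum count of 50 the log2 values on the other side of 0 were TUBA1C 0.032 and CFL1 0.011 in the input. With DESeq2 the log2 values on the other side of 0 were TUBB -0.20 in the input. Without each gene's most-read position the log2 values on the other side of 0 were TUBB -0.40 in the input, then TUBB -0.17 against the input in shscramble, then ACTG1 0.14 against the input in shMETTL1. With the replicate block the log2 values on the other side of 0 were CFL1 0.025 in the input, then TMSB10 -0.21 over the input. With limma on the ratio over the input the log2 values on the other side of 0 were TMSB10 -0.22 over the input. Over the replicates left out, the log2 values that crossed 0 ranged as follows. In AlkAniline-Seq the ranges were ACTB -0.022 to 0.22, TUBA1A -0.0096 to 0.46, TUBA1C -0.26 to 0.13 and PFN1 -0.10 to 0.86. In the input the ranges were TUBA1B -0.38 to 0.21, TUBA1C -0.22 to 0.19, TUBB -0.073 to 0.30 and CFL1 -0.29 to 0.38. Over the input the ranges were TUBA1C -0.23 to 0.43 and TMSB10 -0.61 to 0.56. Against the input in shscramble the ranges were TUBA1A -0.46 to 0.048, TUBA1C -0.24 to 0.41 and CFL1 -0.76 to 0.0090. Against the input in shMETTL1 the ranges were TUBA1B -0.034 to 0.13.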
